A study of Mus musculus with 8 samples.

Results

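Phagocyte activation and lysosome genes were taken as 10 named genes, Tyrobp, Trem2, Cd68, Ctss, Lgals3, Gpnmb, Spp1, Lyz2, Msr1 and Cd14, and read at every probe set of the array whose single platform symbol was one of them. Probe sets were found for 9 of the 10 genes, 14 probe sets in all, out of 45037. No probe set carried Spp1 as its single symbol, and osteopontin, its product, was not analysed here. The arrays were 8 Affymetrix expression arrays of mouse retina, 1 sample each, in 2 groups. Injected retina, labelled as a compound-based treatment, had 4 samples. Control retina was freshly dissected, labelled 0 d, and also had 4 samples. The labels name no compound, dose, route, interval, strain, sex or age, and no sham-injected group was analysed here, so injection, compound and tissue handling cannot be told apart. The labels do not say whether each retina came from its own animal, so the p-values speak only for the spread among these arrays, part of which may be technical.

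Microglia are the resident phagocytes of the retina, and macrophages of the choroid, vitreous and blood can join them. Such cells take up debris through surface receptors, signal through adaptors that carry tyrosine activation motifs, and break the cargo down in lysosomes with cathepsins and other hydrolases. Activated phagocytes also secrete lysozyme, galectin 3 and osteopontin. In these bulk samples more cells of a type and more RNA per cell cannot be told apart.

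The largest tested differences were those of Lyz2, a lysozyme of macrophages and neutrophils, and of Tyrobp, the adaptor that carries the signal of Trem2 and related receptors. Tyrobp signal was 1.69-fold higher in injected retina (log2 difference 0.76 ± 0.23, SE) and was above all controls on all 4 injected arrays, while Lyz2 signal was 2.19-fold higher (1.13 ± 0.45, SE), with control replicate 2 above every injected array. Ctss, Msr1 and Lgals3 signal was higher by 0.36 to 0.44 log2 units with overlapping groups, and Cd68, Gpnmb and Cd14 signal differed by -0.23 to 0.01. None of these passed the threshold (0 of 8 tested members, limma adjusted p from 0.591 to 0.998), nor did any of the 27022 probe sets tested (0%).

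Testing was limited to probe sets with a mean of at least 8.5 on the log2 scale across the arrays, the 40th percentile. Of the 14 member probe sets 8 were tested, 1 for each of 8 genes, and the 6 dim ones were both probe sets of Trem2, the other 3 of Msr1 and the other 1 of Gpnmb. At an unadjusted p under 0.05, 2 of the 8 tested members were higher (Tyrobp and Lyz2) and 0 were lower, beside 3.66% higher and 3.33% lower among all tested probe sets. Groups did not overlap at 1 of the 8, Tyrobp, beside 2.47% of all tested probe sets that were higher and 2.6% that were lower without overlap. Over the 8, 6 differences were positive, beside 47.6% of all tested, and the median was 0.40 against -0.02. A count of 8 genes chosen with earlier results known is a description of them.

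**Figure D1:**
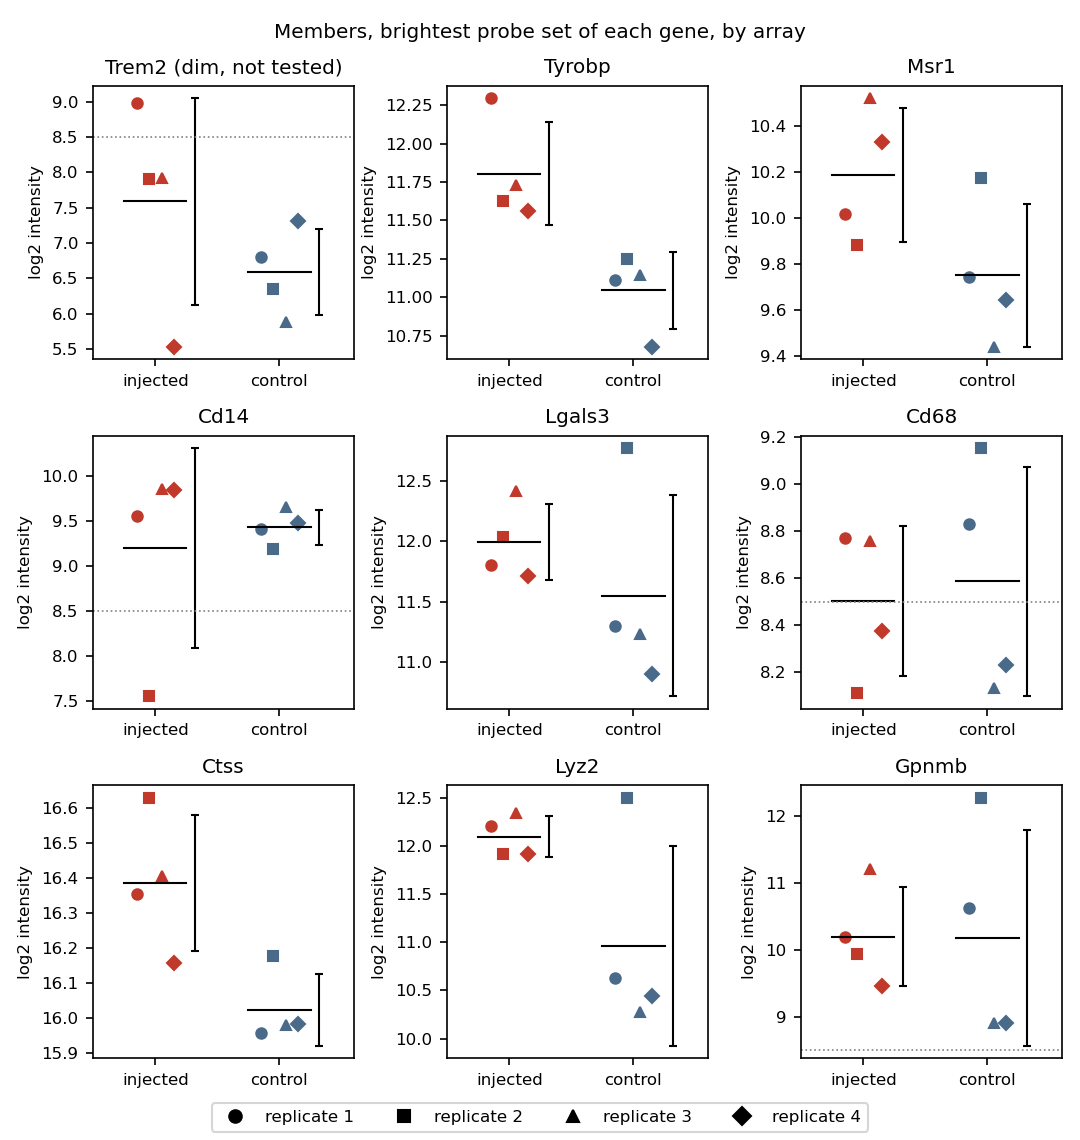
Log2 intensity (y axis) of the brightest probe set of each of the 9 measured members on every array, with injected and control arrays side by side, marker shapes for replicate numbers, a bar at each group mean and an error bar of 1 SD (n = 4). The dotted line is the floor of 8.5 for testing; control replicate 2 (square) is the highest of the 8 arrays for Lgals3, Cd68, Lyz2 and Gpnmb, and injected replicate 2 is far below the other arrays for Cd14.

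Several samples stood apart in ways that touch these genes. On the deposited scale the array medians ran from 519 to 766 in injected and from 495 to 584 in control retina (exact two-sided permutation p = 0.229). The log2 ratio of 3' to 5' signal of the Gapdh control probe sets, a sign of RNA integrity and labelling, ran from 2.40 to 3.14 in injected and from 1.75 to 2.23 in control retina, with no overlap (two-sided exact permutation p = 0.0286, the lowest p possible for 2 groups of 4), while that of beta-actin overlapped (5.44 to 5.90 against 5.29 to 5.84, exact p = 0.486). Injected replicate 3 had the highest median and the highest Gapdh ratio of the 8 arrays. In a limma fit that weights arrays by their spread it also had the lowest weight, 0.19, against 0.65 to 1.83 on the other arrays. The part of RNA quality in the member differences was not tested. Photoreceptor markers were bright on every array, with 6 of 7 measured genes passing the filter. All 6 had negative differences (median -0.29), and 1, Pde6b, was lower at an unadjusted p under 0.05, at -0.64 with no overlap. The log2 of the summed signal of lens genes was 15.38 on injected replicate 2 and 11.83 to 12.90 on the other injected arrays, against 10.74 to 12.15 on the control arrays. All 4 tested lens genes had positive differences (median 2.29), and 3 were higher at an unadjusted p under 0.05, of which Crygf did not overlap. The others of the 3, Crybb2 and Crygd, had control means of 8.07 and 7.44. Both passed the floor for testing only through the injected arrays, so their p-values are no support. The log2 of the summed signal of pigment epithelium and melanocyte genes ran from 15.73 to 16.90 on the injected arrays. It was 18.54 on control replicate 2, the highest of all, and 16.60 to 17.52 on the other controls. Of 10 tested genes of that list, 9 had negative differences and 1 a positive one (median -0.91). At an unadjusted p under 0.05, 2 were lower, Rpe65 at -3.02 with no overlap and Ttr at -0.88 with overlap, and 0 were higher. The shares of all tested probe sets were 3.33% lower and 3.66% higher. Rpe65 had means of 8.04 in injected and 11.06 in control retina and passed the floor only through the control arrays, so its p is no support.

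Among the receptors, Trem2, which binds lipids and lipoproteins on microglia and signals through Tyrobp, was dim. Its brighter probe set (1421226_at) had log2 values of 8.98, 7.91, 7.92 and 5.54 in injected replicates 1 to 4, against 6.80, 6.34, 5.89 and 7.32 in control replicates 1 to 4. Injected replicates 1 to 3 lay above all controls and injected replicate 4 below all of them. The means were 7.59 ± 1.46 in injected and 6.59 ± 0.61 in control retina (SD, n = 4 each), and 1 array, injected replicate 1, was above the floor of 8.5. With no filter the difference of 0.999 had an adjusted p of 0.841 in limma. It was 0.53 without injected replicate 1 and 1.69 without injected replicate 4. The other probe set (1421792_s_at), of a kind that can bind related transcripts, ran from 5.49 to 6.85 in injected and from 5.41 to 6.80 in control retina, so both probe sets of Trem2 lay below the floor on average.

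Tyrobp (DAP12) was the member with the smallest p. Its probe set (1450792_at) had log2 values of 12.29, 11.63, 11.73 and 11.56 in injected replicates 1 to 4, against 11.11, 11.25, 11.15 and 10.68 in control replicates 1 to 4. All injected arrays were above all controls, and injected replicate 1 was the highest. The means were 11.80 ± 0.33 in injected and 11.05 ± 0.25 in control retina (SD, n = 4 each), and the difference of 0.76 had a 95% interval of 0.25 to 1.26 (limma unadjusted p = 0.00808, adjusted p = 0.591). By unadjusted p it ranked number 363 of 27022. Without injected replicate 1 the difference was 0.59, and with arrays centred on their medians it was 0.57 with overlapping groups.

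Msr1, the class A scavenger receptor that takes up modified lipoproteins and debris, was read at its probe set 1448061_at. Log2 values were 10.01, 9.88, 10.52 and 10.33 in injected replicates 1 to 4, against 9.74, 10.17, 9.44 and 9.64 in control replicates 1 to 4. Control replicate 2 lay inside the injected range, and the other 3 controls lay below it. The difference was 0.44 ± 0.23 (SE), with a 95% interval of -0.08 to 0.95 (limma adjusted p = 0.726). The 3 dim probe sets of Msr1 had differences of -0.32, 0.32 and -0.52, with all groups overlapping.

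Cd14, the co-receptor that hands bacterial lipopolysaccharide to the Toll-like receptor complex, split within the injected group. Its log2 values were 9.56, 7.55, 9.86 and 9.85 in injected replicates 1 to 4, against 9.41, 9.19, 9.66 and 9.48 in control replicates 1 to 4. Injected replicate 2 was the lowest of the 8 arrays by a wide margin, while injected replicates 3 and 4 were above all controls. The difference was -0.23 ± 0.48 (SE; limma adjusted p = 0.896), and without injected replicate 2 it was 0.32 (adjusted p = 0.684). That array also had the highest lens signal; the part of lens tissue in its Cd14 value was not tested.

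Among the secreted members, Lgals3 encodes galectin 3, a sugar-binding protein made by activated macrophages and microglia and also by epithelia. It had log2 values of 11.80, 12.03, 12.42 and 11.71 in injected replicates 1 to 4, against 11.30, 12.77, 11.23 and 10.90 in control replicates 1 to 4. Control replicate 2 was the highest array, and the other 3 controls were below all injected arrays. The difference was 0.44 ± 0.39 (SE), with a 95% interval of -0.43 to 1.31 (limma adjusted p = 0.778). It was 0.22 without control replicate 4, 0.84 without control replicate 2 and 0.23 with arrays centred on their medians.

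Lyz2 encodes the lysozyme of macrophages and granulocytes, which cuts bacterial cell walls. Its probe set (1423547_at) had log2 values of 12.21, 11.91, 12.34 and 11.92 in injected replicates 1 to 4, against 10.63, 12.50, 10.28 and 10.45 in control replicates 1 to 4. The injected arrays lay close together, and 3 controls were more than 1 log2 unit below the lowest of them, while control replicate 2 was above the highest. Means were 12.09 ± 0.21 in injected and 10.96 ± 1.04 in control retina (SD, n = 4 each), and the difference of 1.13 had a 95% interval of 0.12 to 2.15 (limma unadjusted p = 0.0324, adjusted p = 0.709). Without control replicate 2 the means were 12.09 ± 0.21 in injected (n = 4) and 10.46 ± 0.17 in control retina (SD, n = 3), and the difference was 1.64 ± 0.21 (SE), or 3.11-fold, with a limma unadjusted p of 4.19e-05 and an adjusted p of 0.209. Leaving out the control with the highest value fixes a larger difference and a smaller control SD in advance. These values only describe the pull of that array and are no further test of Lyz2.

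Lyz1 is a near-identical copy of Lyz2, and its probe sets with names ending in x_at are of a kind that can bind both transcripts. Its probe set 1436996_x_at had log2 values of 15.30, 14.99, 16.11 and 14.73 in injected replicates 1 to 4, against 13.70, 15.35, 11.80 and 12.43 in control replicates 1 to 4. A second one, 1439426_x_at, ran from 12.94 to 16.03 in injected and from 10.80 to 13.59 in control retina. Their differences were 1.96 ± 0.69 and 2.18 ± 0.75 (SE; limma unadjusted p = 0.0186 and 0.0174, adjusted p = 0.698 and 0.676), and control replicate 2 was again the highest control. The third, 1450822_at, is not of that kind and was dim. It ran from 7.41 to 9.20 in injected and from 8.16 to 8.54 in control retina, and overlapped, with a difference of -0.16. The x_at probe sets cannot divide the lysozyme signal between the 2 genes.

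The lysosomal members differed less. Ctss, cathepsin S, a cysteine protease that degrades cargo and processes the class II invariant chain, had log2 values of 16.35, 16.63, 16.41 and 16.16 in injected replicates 1 to 4, against 15.96, 16.18, 15.98 and 15.98 in control replicates 1 to 4. Control replicate 2 passed injected replicate 4 by a small margin, and the other 3 controls had an SD of 0.014. The difference was 0.36 ± 0.17 (SE), or 1.29-fold, with a 95% interval of -0.03 to 0.76 (limma unadjusted p = 0.0659, adjusted p = 0.725). On the deposited scale it ran from 70928 to 127167 intensity units in injected and from 59171 to 72325 in control retina, at the bright end of the array.

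Cd68, a heavily glycosylated protein of the late endosome and lysosome membrane and a common stain for phagocytic activity, had log2 values of 8.77, 8.11, 8.76 and 8.38 in injected replicates 1 to 4, against 8.83, 9.15, 8.13 and 8.23 in control replicates 1 to 4. The groups overlapped, with control replicates 1 and 2 above every injected array. The difference was -0.08 ± 0.28 (SE), with a 95% interval of -0.71 to 0.54 (limma adjusted p = 0.94). Its mean of 8.55 was just above the floor, and without control replicate 2 it no longer passed the filter.

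Gpnmb, a membrane glycoprotein of melanosomes and of the lysosomes of lipid-laden phagocytes, varied most among the controls. Its probe set 1448303_at had log2 values of 10.19, 9.93, 11.20 and 9.45 in injected replicates 1 to 4, against 10.63, 12.28, 8.90 and 8.91 in control replicates 1 to 4. Control replicates 2 and 1 were the highest of their group, and control replicates 3 and 4 were below all injected arrays. The difference was 0.01 ± 0.73 (SE), with a 95% interval of -1.63 to 1.65 (limma adjusted p = 0.998). The dim probe set 1439345_at had 6.64, 7.91, 8.14 and 5.67 in injected replicates 1 to 4, against 8.17, 8.43, 8.44 and 8.0 in control replicates 1 to 4, the opposite side, and its difference of -1.17 was not tested (with no filter, limma adjusted p = 0.823).

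**Figure D2:**
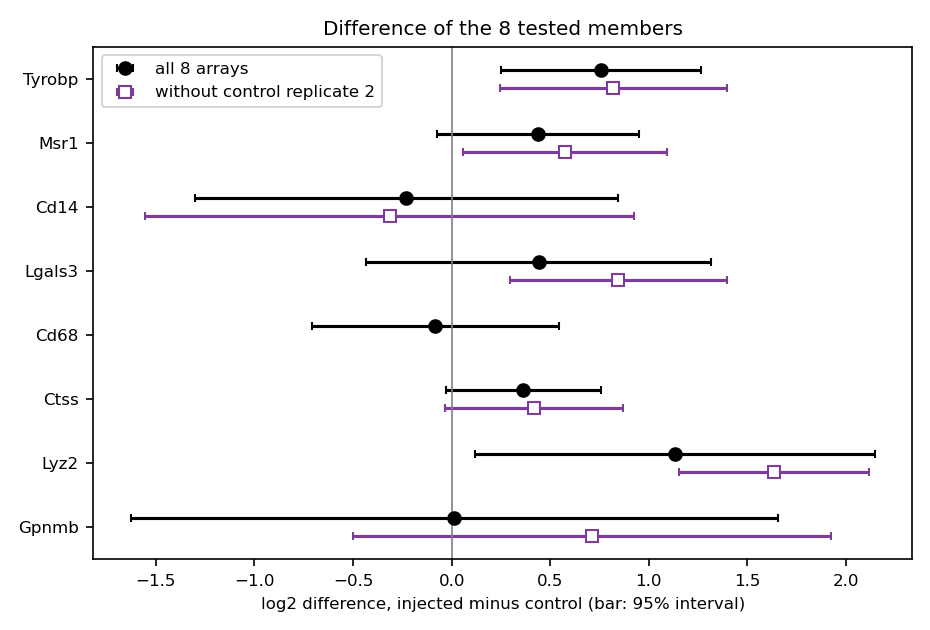
Log2 difference, injected minus control (x axis), of the 8 tested members with its 95% interval, from limma on all 8 arrays (filled circles) and on the 7 arrays without control replicate 2 (open squares). Without that array Lyz2 moved to 1.64 and Lgals3 to 0.84, Gpnmb moved to 0.71 with an interval that still held 0, and Cd68 has no open square because it fell below the filter.

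One control array carried much of the spread. Control replicate 2 was the highest of the 4 controls in 7 of the 8 tested members and the highest of all 8 arrays in 4, Lyz2, Lgals3, Gpnmb and Cd68. It exceeded the mean of the other 3 controls by 2.79 log2 units for Gpnmb, 2.05 for Lyz2, 1.63 for Lgals3, 0.75 for Cd68, 0.57 for Msr1, 0.27 for Tyrobp and 0.21 for Ctss, and was 0.32 below it for Cd14. Relative to the control mean, 10 tested pigment epithelium and melanocyte genes averaged -1.78 to -0.20 on the injected arrays, 1.65 on control replicate 2 and 0.14, -0.99 and -0.80 on control replicates 1, 3 and 4. For 9 matrix and connective tissue genes the average was -0.94 to 0.04 on the injected arrays, 1.64 on control replicate 2 and -0.90 to -0.01 on the other controls, inside the injected range. The 4 tested blood monocyte genes averaged -0.50 to 0.04 on the injected arrays, 0.59 on control replicate 2 and -0.23 to -0.16 on the other controls. The part of these tissues in the member values was not tested.

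Without control replicate 2, 7 members were tested, 4 of them (Lyz2, Lgals3, Tyrobp and Msr1) were higher at an unadjusted p under 0.05, and 0 were lower, beside 2.89% higher and 2.15% lower among all probe sets. In the same setting 5 of the 7 did not overlap and were higher, Ctss being the fifth, and 0 were lower, beside 3.73% higher and 4.06% lower of all. Lgals3 differed by 0.84 ± 0.24 (SE; limma adjusted p = 0.843), Msr1 by 0.57 ± 0.23 and Tyrobp by 0.82 ± 0.25 (both adjusted p = 0.874), and Gpnmb by 0.71 ± 0.53 (adjusted p = 0.874). The adjusted threshold was passed by 0 members and 0 of all probe sets there. With other arrays left out the count of members higher at an unadjusted p under 0.05 was 1 without injected replicate 1, injected replicate 3, control replicate 1, control replicate 3 or control replicate 4, against 2 with all arrays. It was 2 without injected replicate 2 and 3 without injected replicate 4, where 34 of all probe sets passed the adjusted threshold. The shares over all probe sets at an unadjusted p under 0.05 are not given for these settings, so the counts cannot be set against a background. The setting without control replicate 2 was chosen because earlier results had set that array apart, so it describes how far 1 array moves the values. As that array was the highest control in 7 of the 8 tested members, leaving it out raises their differences and lessens their overlap in advance. Probe sets at large were not picked in that way, so the counts without it are no test of the members against those shares.

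**Figure D3:**
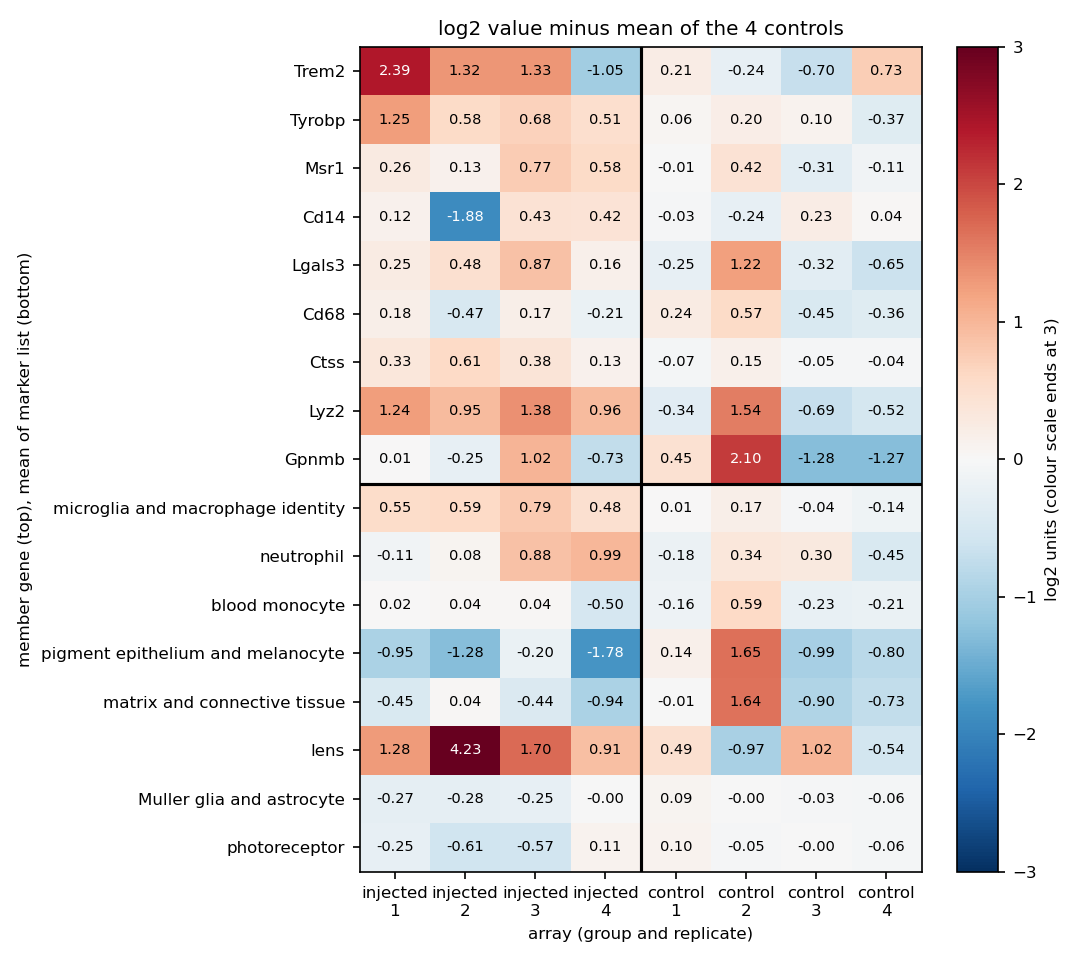
Log2 value minus the mean of the 4 controls for the 9 measured members (top) and the mean of the tested genes of 8 marker lists (bottom) on each array (columns, injected to the left). The microglia list is highest on the 4 injected arrays (0.48 to 0.79), while control replicate 2 is high for Gpnmb (2.10), Lyz2 (1.54) and Lgals3 (1.22) and for the pigment (1.65) and matrix (1.64) lists.

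Microglia and macrophage identity genes were also brighter on average on the injected arrays, and their part in the member differences was not tested. Relative to the control mean, their mean over 15 tested genes was 0.55, 0.59, 0.79 and 0.48 log2 units in injected replicates 1 to 4, against 0.01, 0.17, -0.04 and -0.14 in control replicates 1 to 4. The log2 of the summed signal of all 17 ran from 16.07 to 17.34 in injected and from 15.04 to 15.75 in control retina, and was highest on injected replicate 3. Of the 15, 7 were higher at an unadjusted p under 0.05 (Csf1r, Ptprc, C1qb, C1qc, P2ry13, Adgre1 and Irf8), beside 3.66% of all tested probe sets. Of the same 15, 0 were lower, beside 3.33%, and 0 passed the adjusted threshold. The other probe set of Ptprc was at -0.51 and that of Irf8 at 0.55. Those of Csf1r ran from -0.26 to 0.64 and those of C1qb from 0.84 to 1.09. The median difference of the 15 was 0.74, with 12 positive and 3 negative. The homeostatic microglia genes P2ry12, at 0.01 ± 0.34 (SE), and Tmem119, at -0.25 ± 0.38, were among the 8 not higher at an unadjusted p under 0.05. The other negative ones were Spi1 at -0.34 ± 0.20 and Gpr34 at -0.04 ± 0.27. Aif1 and Itgam were dim and not tested, with differences of -1.17 and 0.65. Tyrobp at 0.76 was near that median, Lyz2 at 1.13 was above it, and the other 6 tested members were below it. Neutrophil genes were mostly dim (8 of 12, S100a8, S100a9, Elane and Mpo among them), and the log2 of the summed signal of the 12 ran from 12.28 to 13.52 in injected and from 11.999 to 12.60 in control retina. Of the 4 tested, 2 (Ngp and Lcn2) were higher at an unadjusted p under 0.05, beside 3.66% of all tested probe sets, and 0 were lower. The granule gene Ngp was at 1.09 ± 0.31 (SE), with no overlap. Its means were 9.27 in injected and 8.18 in control retina. Ngp passed the floor for testing only through the injected arrays, so its p and lack of overlap are no support. The iron-binding lipocalin Lcn2, which other cells also make, was at 1.53 ± 0.50. Ltf was at -0.61 ± 0.33 and Mmp9 at -0.18 ± 0.38. Whether neutrophils, which also make Lyz2, had a part in its difference was not tested.

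Other genes of the pathway were read from 5 lists, each gene at its brightest probe set, without the members. Of 35 lysosomal enzymes and membrane proteins, 31 had a probe set with that symbol and all 31 were tested, with 0 past the adjusted threshold, 17 positive and 14 negative differences and a median of 0.16. At an unadjusted p under 0.05, 1 was higher, Laptm5, a lysosomal membrane protein of blood-derived cells, at 1.23 ± 0.41 (SE), with its 4 other probe sets from 0.09 to 0.91. In the same way 2 were lower, the hydrolase Gusb at -0.70 ± 0.24 (its other probe set was at -0.07) and Mitf, a transcription factor of pigment cells and lysosomal genes, at -0.79 ± 0.31 (its other probe set was at 0.04), named after its value was seen. The cathepsins Ctsd, at 0.20 ± 0.50, and Ctsb, at 0.19 ± 0.19, and the membrane protein Lamp1, at -0.15 ± 0.23, had overlapping groups. Ctsb had 4 other probe sets, from -1.36 to 0.07.

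Of 28 measured phagocytic receptors and adaptors, 19 were tested, 12 with positive and 7 with negative differences, a median of 0.15 and 0 past the adjusted threshold. Fcgr3, a low-affinity IgG receptor, was higher at 1.17 ± 0.34 (SE; limma unadjusted p = 0.00692, adjusted p = 0.588), with no overlap. Axl, a receptor tyrosine kinase for apoptotic cells, was lower at -0.56 ± 0.24 (unadjusted p = 0.0416), with overlapping groups and its other probe set at -0.01. Its relative Mertk, which pigment epithelium uses to take up outer segments, differed by -0.28 ± 0.18, the signalling chain Fcer1g by 0.26 ± 0.25, the integrin Itgb2 by 0.49 ± 0.28 and the high-affinity IgG receptor Fcgr1 by 0.69 ± 0.35 (its other probe set was at -0.21).

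Among 19 tested genes of a list tied to microglia in disease models, 11 were positive and 8 negative with a median of 0.04, and 0 passed the adjusted threshold. At an unadjusted p under 0.05, 0 were higher and 1, Axl, was lower. Clec7a, a receptor for fungal glucans, differed by 0.996 ± 0.46 (SE; limma unadjusted p = 0.0592), the cystatin Cst7 by 0.28 ± 0.18, Ch25h, a cholesterol hydroxylase, by 0.72 ± 0.52, the lipid carrier Apoe by -0.13 ± 0.45 and the cathepsin inhibitor Cst3 by -0.26 ± 0.25.

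The endotoxin receptor list, which works with Cd14, had 11 tested genes, 10 positive and 1 negative, with a median of 0.34, 3 higher at an unadjusted p under 0.05 and 0 past the adjusted threshold. Those 3 were Ly86 and Cd180, partners in a Toll-like complex of B cells and macrophages, at 0.69 ± 0.17 and 0.54 ± 0.19 (SE), and the adaptor Tirap at 0.62 ± 0.25 (its other probe set was at -0.15), named after its value was seen. Tlr4 itself differed by 0.02 ± 0.34, with its 3 other probe sets from 0.70 to 1.59, Tlr2 by -0.14 ± 0.26 and the adaptor Myd88 by 0.34 ± 0.23, and Ly96, the partner of Tlr4, was dim.

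Among osteopontin receptors and galectins, 10 of 16 were tested, 2 positive and 8 negative with a median of -0.13, and 0 passed the adjusted threshold. The integrin chain Itga4 was higher at 0.48 ± 0.20 (SE; limma unadjusted p = 0.0384), with no overlap and its 4 other probe sets from 0.26 to 0.75. The chain Itgb1 was at -0.43 ± 0.20 (unadjusted p = 0.0639), with the injected arrays below all controls and its 5 other probe sets from -1.15 to -0.33. Cd44, at -0.04 ± 0.19, Itgav, at -0.17 ± 0.21, and galectin 1, Lgals1, at -0.16 ± 0.34, had overlapping groups, with the lowest of their other probe sets at -1.23, -1.29 and -0.46, and Lgals9 was dim.

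**Figure D4:**
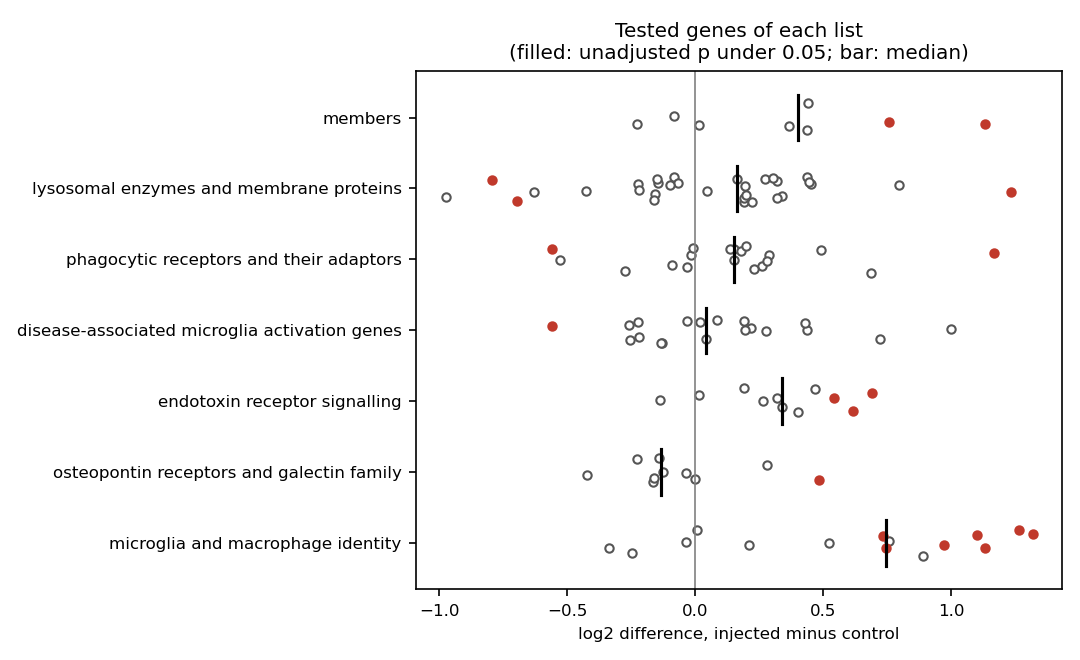
Log2 difference, injected minus control (x axis), of each tested gene of the members, 5 pathway lists and the microglia and macrophage identity list (rows), with filled points for an unadjusted limma p under 0.05 and a bar at each median. The median is 0.40 for the 8 members, 0.74 for the 15 identity genes and between -0.13 and 0.34 for the pathway lists.

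By root mean square distance over the 8 arrays, the genes whose values were most like the mean profile of the 8 tested members were Tmem176a (0.09 log2 units), Dock5 (0.13), Elof1 (0.14), Ctsh (0.15), Pvalb (0.16) and Fbxl21 (0.16), of 12878 genes. A flat line lay at 0.41 and the median gene at 0.53. The mean profile was highest on injected replicate 3 (0.54) and control replicate 2 (0.57) and lowest on control replicates 4 (-0.59) and 3 (-0.52). Among these 6 genes, Ctsh is a lysosomal cathepsin, and the others are not on the lysosomal list. All 6 were picked by their nearness to the members, and the share of lysosomal genes among the 12878 is not given. Ctsh is therefore no support for a shared function.

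RefSeq promoter sequence on GRCm38.p6 was held for 7 of the 10 genes. The 250 bases before the start site are shown for Lyz2, Lgals3 and Gpnmb, whose signal was highest on control replicate 2, and for Cd68 and Trem2, which hold matches to motifs searched on both strands. Capitals mark the matches, and all sequences run 5′ to 3′ on the gene's strand.
Lyz2 (chr10:117282273-117282522, minus strand): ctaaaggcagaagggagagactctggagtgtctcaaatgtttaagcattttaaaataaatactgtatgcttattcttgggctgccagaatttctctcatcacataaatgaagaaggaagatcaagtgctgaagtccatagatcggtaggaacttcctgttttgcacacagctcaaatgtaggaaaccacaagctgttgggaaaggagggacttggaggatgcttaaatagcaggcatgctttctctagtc
Lgals3 (chr14:47373610-47373859, plus strand): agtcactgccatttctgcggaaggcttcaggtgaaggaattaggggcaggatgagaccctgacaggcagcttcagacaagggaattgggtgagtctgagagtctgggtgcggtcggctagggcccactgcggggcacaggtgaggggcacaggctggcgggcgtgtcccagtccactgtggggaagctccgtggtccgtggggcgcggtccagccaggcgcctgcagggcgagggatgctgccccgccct
Gpnmb (chr6:49036268-49036517, plus strand): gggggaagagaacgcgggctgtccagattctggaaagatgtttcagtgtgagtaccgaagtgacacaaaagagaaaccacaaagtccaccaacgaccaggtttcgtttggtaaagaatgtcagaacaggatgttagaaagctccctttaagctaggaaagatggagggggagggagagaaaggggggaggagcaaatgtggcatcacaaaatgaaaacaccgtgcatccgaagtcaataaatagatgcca
Cd68 (chr11:69666171-69666420, minus strand): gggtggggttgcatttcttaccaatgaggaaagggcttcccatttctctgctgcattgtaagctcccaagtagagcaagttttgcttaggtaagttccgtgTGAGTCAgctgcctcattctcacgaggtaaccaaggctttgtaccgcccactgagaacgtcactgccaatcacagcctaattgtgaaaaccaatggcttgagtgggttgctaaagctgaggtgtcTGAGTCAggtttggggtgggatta
Trem2 (chr17:48346151-48346400, plus strand): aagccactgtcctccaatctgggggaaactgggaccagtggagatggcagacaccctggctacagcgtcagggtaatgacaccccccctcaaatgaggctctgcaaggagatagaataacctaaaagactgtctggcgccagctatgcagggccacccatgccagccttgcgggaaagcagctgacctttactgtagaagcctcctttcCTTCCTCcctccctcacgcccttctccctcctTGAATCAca

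The motifs were CACGTG, the core of the lysosomal gene element that TFEB binds, TCATGTG, bound by MITF, GAGGAAG, a core of PU.1 elements in myeloid genes, TGANTCA, and TATAAA. The pattern TGANTCA takes any base at N, so it includes the AP-1 element but is looser than it. None of the letters searched overlap another match in these windows. Cd68 held 2 TGANTCA matches, both TGAGTCA, which start 149 and 24 bases before the start site. Trem2 held 1 TGANTCA match at 9, which reads TGAATCA, and 1 PU.1 match at 41. Of 27025 promoters of the same length, 6.87% held the TGANTCA letters and 10.4% the PU.1 letters, and 6.05% held CACGTG, 3.22% TCATGTG and 13% TATAAA. Lyz2, Lgals3 and Gpnmb held no match to these 5 in this window. Ctss and Spp1, whose sequences are not shown, also held matches. Ctss held 1 TATAAA match at 233, and Spp1, at its more upstream start site, held 1 PU.1 match at 113 and 1 TATAAA match at 211. Of the genes with a match, Cd68 differed by -0.08 and Ctss by 0.36, Trem2 was dim and Spp1 was not measured. Any tie between matches and differences was not tested.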

How the data were processed

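Gene expression was measured on 8 arrays, 4 of injected and 4 of control retina. The values that the authors deposited are linear intensities, 1 for each probe set on each array. The mean without 2% of probe sets at each end was 2500 on every array, so total RNA per retina cannot be compared. The array software is not given in the sources used here, and detection calls were not used here. Of 45101 probe sets, 64 array controls were set aside.

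Array medians differed by 1.55 times, and deposited intensities were quantile-normalised in limma 3.58.1 (R 4.3.3) and taken as log2(intensity + 16), which understates changes of dim genes. Probe sets at or above the 40th percentile of mean log2 value (8.5, about 345 intensity units) were tested with lmFit and eBayes, and Benjamini-Hochberg adjustment ran over all 27022, with a threshold of 0.05. The number of arrays limits the precision. The limma script was tested on simulated data.

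Symbols came from the platform annotation, and 9 members matched RefSeq by Entrez identifier. No gene coordinates are given, since the annotation names no build. Members and lists were chosen with earlier results of these data known. Named were all members, up to 4 fixed genes of each pathway list with 2 others of smallest p, and the 6 nearest profiles; Lyz1, Mitf, Tirap and the genes named from marker lists were named after their values were seen. No pairing by replicate number was found, since the same-numbered arrays' deviations had correlations of -0.03 to 0.08. Figures used matplotlib 3.10.9.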

Additional observations from a re-analysis of the deposited data

Results flagged for a closer look

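In 4 of the 28 groups of 4 arrays formed by the 14 member probe sets, 1 array lay far from the other 3. Chance flags about 1 group in 20, and several of these probe sets share arrays. The log2 value of Lyz2 was 12.50 on control replicate 2, against 10.28 to 10.63 on the other controls. Ctss was at 16.18 on the same array, against 15.96 to 15.98 on the other controls. Cd14 was at 7.55 on injected replicate 2, against 9.56 to 9.86 on the other injected arrays. The dim Msr1 probe set 1425434_a_at was at 7.47 on control replicate 3, against 5.79 to 6.02 on the other controls.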

How the results depend on the processing

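The fit was repeated in 19 ways: with a pseudocount of 1 or 64, without the filter, on the deposited scaling, with median centring, with a trended robust prior, with array weights, with the replicate number as a block, on a single probe set per gene, without moderation, without each array in turn, and without control replicate 2 with injected replicate 3. The count of members past the adjusted threshold was 0 under each of them. Over all probe sets the count of 0 became 8 with array weights, and leaving out 1 array gave 0 to 34, the highest without injected replicate 4. With the replicate block both counts were 0. Tyrobp stayed positive under all 19 (0.57 to 0.89, limma adjusted p from 0.306 to 0.889), as did Lyz2 (0.90 to 1.64, adjusted p from 0.2 to 0.889). At an unadjusted p under 0.05, Tyrobp passed in 18 of 19 and Lyz2 in 12 of 19. With median centring 0 members passed at an unadjusted p under 0.05, where 2 did before. The share of all probe sets at that p is not given for median centring. Direction turned for Gpnmb with a pseudocount of 64 (-0.0067), with median centring (-0.10) and without injected replicate 3, control replicate 3 or control replicate 4 (-0.41 to 0.71 with 1 array left out), for Cd68 with the deposited scaling (0.14), without injected replicate 2 (0.05), without control replicate 2 (0.11) and without control replicate 2 and injected replicate 3 (0.02), within -0.23 to 0.11 with 1 array left out, and for Cd14 without injected replicate 2 (0.32, within -0.53 to 0.32 over all settings that leave out arrays). The causes were not tested. Trem2 and the other dim probe sets limit what low signal can show.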
